A study of Sus scrofa with 54 samples.

Results

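The 4 samples described here were micro-biopsies of the pig left ventricle, taken 7 days after the first sampling, which the study set apart because they lay away from the other heart samples in a principal component plot. They were samples 8, 22, 36 and 52 of the 12 day 7 micro-biopsies, in a series of 54 samples from 5 pigs, and they were compared with the other 8 day 7 micro-biopsies (samples 15, 17, 34, 37, 39, 44, 47 and 53). The micro-endomyocardial biopsy (micro-EMB) device takes a sub-milligram piece of heart wall through a catheter, and the animals were naive adult female Yorkshire-Swedish farm pigs from which biopsies had also been taken at day 0. Each of 4 pigs (4491, 4494, 4664 and 4665) gave 1 outlying and 2 other samples. Controls were 10 conventional endomyocardial biopsies (conventional EMB, 6 at baseline and 4 at follow-up), 6 skeletal muscle and 6 blood samples, all from pigs 4491 and 4494, and there were 20 baseline micro-EMB samples.

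The 4 had been picked on their expression, so every difference between them and the other 8 is a description, for which no test is given. The sample numbers of the 4 are not in the labels and were taken as given, and the choice was checked here only by the scores that follow. On the first principal component of the 500 most variable genes in 44 samples, which held 55.3% of the variance, sample 22 scored 1.10, sample 8 scored 3.66, sample 52 scored 3.76 and sample 36 scored 12.2. The nearest of the other day 7 samples on that axis was sample 53 at -13.1, and the lowest was sample 15 at -20.5. The 15 baseline micro-EMB samples in the plot lay between -25.2 and -6.50, so the highest of them was nearer to the 4 than sample 53. The 7 conventional EMB samples in the plot lay between -21.9 and -13.3, skeletal muscle between -19.0 and -13.1, and blood between 90.7 and 95.2.

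Heart wall is mostly cardiomyocytes by volume, and their RNA is dominated by the sarcomere, the array of actin and myosin filaments that contracts, by the proteins that release and take up calcium, and by the mitochondrial enzymes that burn fatty acids. Fibroblasts, endothelium, macrophages and the outer mesothelial sheet (the epicardium) make up most of the other cells. After injury, fibroblasts take on a contractile and secretory state in which they lay down fibrillar collagen together with periostin and fibronectin. In a bulk sample, fewer cells of a type and less RNA per cell cannot be told apart.

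Several libraries stood apart. Sample 44, one of the other 8, clustered with blood and is absent from the plot, so values are given with and without it. Skeletal muscle sample 57 (325907 reads) did so too and is kept in the ranges of muscle. Of the conventional EMB samples, 3, 38 and 55 also clustered with blood, and they held little of the cardiomyocyte marker TNNT2 (619, 35.7 and 27.5 CPM). They are left out of the conventional EMB ranges below, which cover the other 7. CPM is the read count of a gene scaled to a common library size, with TMM factors over all 54 samples. Counted reads ranged from 801208 to 2681226 in the 4 and from 1196252 to 2940747 in the 8, and their mean log10 values differed by -0.088 (two-sided exact permutation test, p = 0.42). That test relabelled the 12 samples freely and took no account of the pig. Genes at 1 CPM or more, here scaled by library size without TMM factors, numbered 10141 to 12436 in the 4 and 9168 to 15645 in the 8.

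Sarcomere genes were low in all 4 samples, and as a share of reads lowest in sample 36. The 18 measured genes of a 28-gene sarcomere list took 1.62, 1.75, 0.756 and 0.832% of counted reads in samples 8, 22, 36 and 52. Their 95% Wilson intervals were 1.60 to 1.65, 1.73 to 1.77, 0.746 to 0.767 and 0.820 to 0.844% in that order. In the other 8 the share was lowest at 2.04% in sample 44, with a median of 8.95% and a highest value of 14.5%, and the next lowest after sample 44 was 5.62%. The groups therefore did not overlap, but sample 44 lay nearer to the 4 than to its own group. Conventional EMB held 11.0 to 15.7%, skeletal muscle 3.49 to 6.94% and blood 0.00685 to 0.0131%. These intervals cover counting error only.

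**Figure D1:**
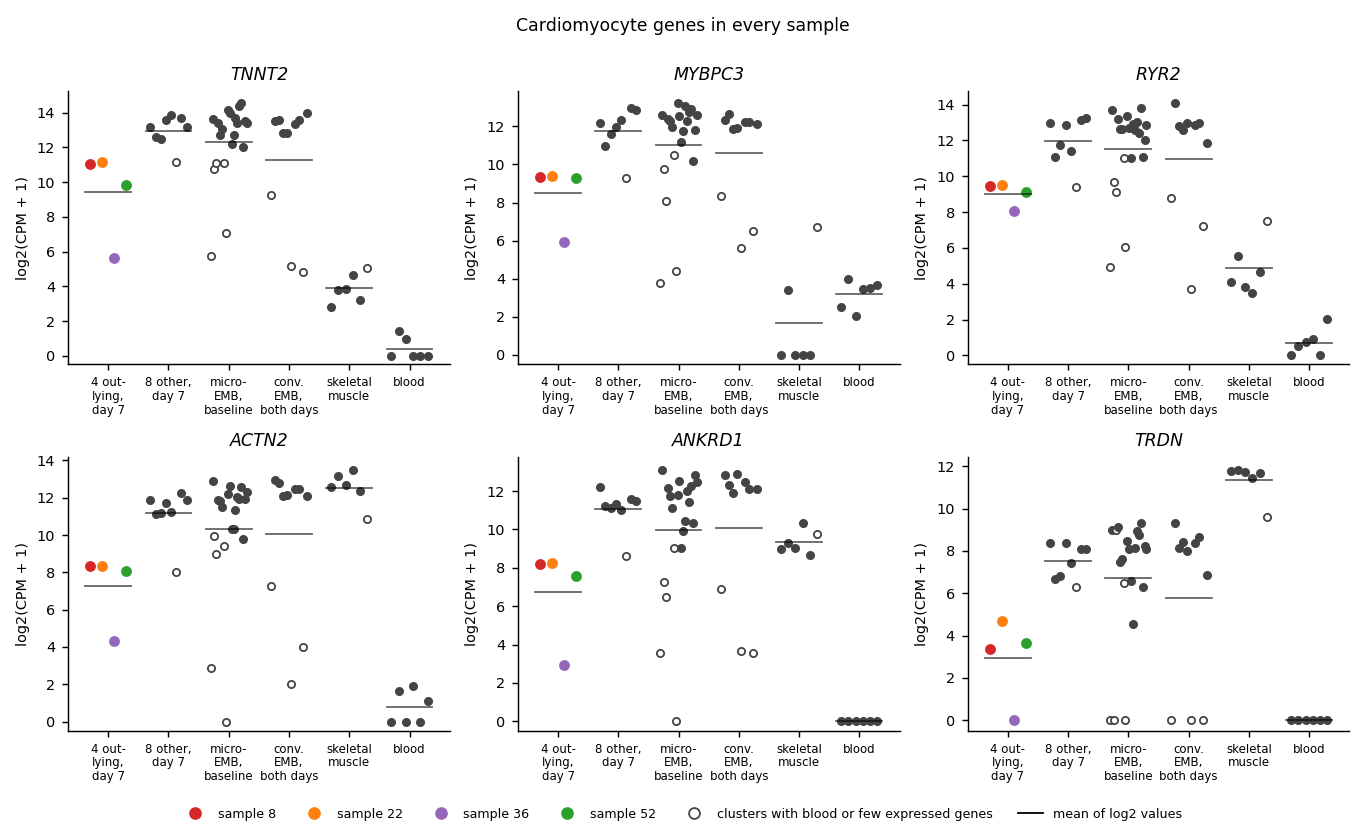
Levels of 6 cardiomyocyte genes, as log2(CPM + 1), in every sample of each group, with the 4 outlying samples in colour, a line at each group's mean and open points for samples that clustered with blood or had few expressed genes. Sample 36 (purple) is the lowest of the 4 in each panel, and sample 44 (the open point among the other 8) lies near the 4 for TNNT2, MYBPC3, RYR2 and ACTN2.

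TNNT2, the troponin that anchors the calcium switch of the cardiac thin filament, stood at 2130, 2282, 48.1 and 908 CPM in samples 8, 22, 36 and 52. In the other 8 it ran from 2275 through a median of 9172 to 15025 CPM. The overlap came from sample 44 alone, since the next lowest of the 8 held 5748 CPM. The log2 fold change, outlying over other with the pig in the fit, was -3.02 (SE 0.97), and -3.38 (SE 0.92) without sample 44. MYBPC3, which binds myosin in the cardiac thick filament, stood at 660, 670, 60.1 and 620 CPM in samples 8, 22, 36 and 52, against 633 to 8118 CPM in the 8 and 1998 to 8118 without sample 44. RYR2, the channel that releases calcium from the store of the cardiomyocyte, stood at 695, 726, 268 and 548 CPM, against 664 to 9827 in the 8. Its next lowest value after sample 44 was 2154 CPM, so again only that sample overlapped with the 4. The fold changes of both genes were of the same order as that of TNNT2 (MYBPC3 log2 -3.23, SE 0.77, and RYR2 log2 -2.97, SE 0.76).

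All 17 sarcomere genes that passed the filter on low counts were lower by more than 1 on the log2 scale, with a median of -3.39, a range from -4.21 to -1.12 and a median over all 11164 genes tested of 0.06. Of all genes, 15.4% were lower and 15.1% were higher by that margin. A positive fold change was found in 5930 of the 11164 genes and a negative one in 5234. Of the 17, 3 lay below all 8 other samples in all 4 (0.905% of all genes), and 15 did so without sample 44 (2.98%). ACTC1, the cardiac actin, was the member with the largest difference (47.4, 207, 6.73 and 138 CPM in samples 8, 22, 36 and 52, and 118 to 3328 CPM in the 8, log2 -4.21, SE 1.10). Within pigs, the median of the sarcomere list differed from that of the pig's other 2 samples by -3.12, -1.04, -7.09 and -3.98 on the log2 scale for samples 8, 22, 36 and 52. Sample 22 shares pig 4494 with sample 44, and against sample 39 alone its difference was -2.31. The same medians over all genes were -0.19, 0.59, -0.28 and 0.16.

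In the calcium and ion channel list, 11 of 17 genes were lower by more than 1 on the log2 scale and 1 was higher. TRDN, which anchors the calcium release channel in the store membrane, stood at 9.47, 24.9, 0 and 11.6 CPM in samples 8, 22, 36 and 52. Its lowest value in the other 8 was 76.7 and its highest 333 CPM, so that the groups did not overlap (log2 -4.37, SE 0.95). Among the cardiac stress genes, ANKRD1, a nuclear and sarcomeric protein that responds to stretch, stood at 292, 299.9, 6.73 and 193 CPM against 389 to 4809 CPM. Of 12 transcription factors, 12 had a negative fold change and 6 were lower by more than 1, with the nuclear receptor ESRRG and the homeobox factor PROX1 below all 8 in all 4. PROX1 stood at 34.3, 11.8, 0 and 14.2 CPM, against 37.1 to 300.4 CPM.

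Energy genes followed the sarcomere in direction. All 37 nuclear-encoded oxidative phosphorylation genes tested had a negative fold change (median log2 -1.95), and 7 of them lay below all 8 in all 4, or 22 without sample 44. NDUFB5, a subunit of complex I, stood at 1.18, 3.27, 3.36 and 4.74 CPM against 12.5 to 54.1 CPM. All 15 fatty acid oxidation genes had a negative fold change too (median log2 -1.49), with 2 of them, HADHB and ETFDH, below all 8 in all 4. HADHB, a subunit of the mitochondrial trifunctional protein, stood at 43.8, 87.7, 67.8 and 67.3 CPM, and at 105 to 588 CPM in the 8. In sample 22 the fatty acid list was at -0.07 against the other 2 samples of its pig and at -0.84 against sample 39 alone.

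Across all genes, 101 (0.905%) lay below every one of the 8 in all 4 samples, and 50 (0.448%) lay above every one. Without sample 44 the numbers were 333 (2.98%) and 75 (0.672%). These shares follow from the choice of the 4, and nothing is read from their size. Of 11164 genes, 251 (2.25%) were below and 253 (2.27%) above both other samples of the same pig in all 4 pigs.

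Among the 15 named genes below all 8 with the largest fold changes were several of muscle. LRRC39, a protein of the sarcomere's M-band, had 3 reads in the 4 samples together, all in sample 52, and 10.7 to 250.5 CPM in the 8. SLCO5A1, a solute carrier family member, and ZWILCH, a kinetochore protein, likewise had 3 reads each in the 4, and no fold is given for these 3 genes. The muscle proteins FSD2 (0, 4.58, 0 and 10.0 CPM against 15.7 to 220 CPM) and KLHL31 (10.7, 1.96, 0 and 8.42 CPM against 28.7 to 156 CPM) came next to them, along with REEP1, which shapes the endoplasmic reticulum. TRIM63, the ubiquitin ligase MuRF1 that marks sarcomere proteins for breakdown, stood at 75.8, 45.8, 0.481 and 23.2 CPM against 141 to 871 CPM. NEB, the nebulin of the skeletal thin filament, stood at 18.9, 18.3, 0 and 8.42 CPM against 50.0 to 865 CPM, and PGAM2, DUSP26, PROM1 and MR1 completed the 15 together with TRDN, ESRRG and ANKRD1. GAPDH, the glycolytic enzyme, was also below all 8 in all 4, at 446, 235, 51.9 and 244 CPM against 585 to 1767 CPM. It was the only such gene among the 21 tested of the hypoxia and glycolysis list. That list was mixed, with 4 genes higher and 4 lower by more than 1 on the log2 scale (median -0.49).

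Markers of skeletal muscle were not raised. TNNC2, the troponin C of fast fibres, was at 0 CPM in each of the 4, and ATP2A1, their calcium pump, was at 0 to 1.44 CPM. Skeletal muscle held 3660 to 19326 CPM of the former and 4592 to 31843 CPM of the latter, with sample 57 the lowest for both and the next lowest at 9585 and 18802 CPM. The whole skeletal list took 0.00466 to 0.0198% of reads in the 4, 0.029 to 0.123% in the 8 and 9.32 to 20.8% in muscle. Its 8 tested genes all had negative fold changes (median log2 -1.94).

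The same genes were tested between the control tissues. The plot that set the 4 apart held these controls, and its first axis separated blood from heart, so the counts for blood follow in part from that choice and nothing is read from their size. Of the 101 genes below all 8, 96 were measured well enough in the controls, and 78 of them were lower and 1 higher in blood than in conventional EMB at baseline, where 24.2% of all genes were lower and 8.51% higher (edgeR quasi-likelihood test, adjusted p under 0.05 and a log2 fold change beyond 1). Skeletal muscle and blood differed from conventional EMB in 9.11% and 32.7% of all genes. Against skeletal muscle, 13 were higher in muscle, where 3.98% of all genes were, and 11 were lower, where 5.13% were. Without the control samples that clustered with blood, 82 of 99 were lower in blood (27.4% of all genes), 20 were higher in muscle (6.02%) and 22 were lower (8.45%). TNNT2 was lower in muscle than in conventional EMB (log2 -8.92, SE 1.04, edgeR adjusted p = 1.1e-05). TRDN was higher in muscle (log2 3.37, SE 0.88, edgeR adjusted p = 0.0264), as was NEB (log2 7.37, SE 1.09, edgeR adjusted p = 0.000162). The control samples came from 2 pigs and several share an animal, so these p-values are too small by an unknown amount.

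**Figure D2:**
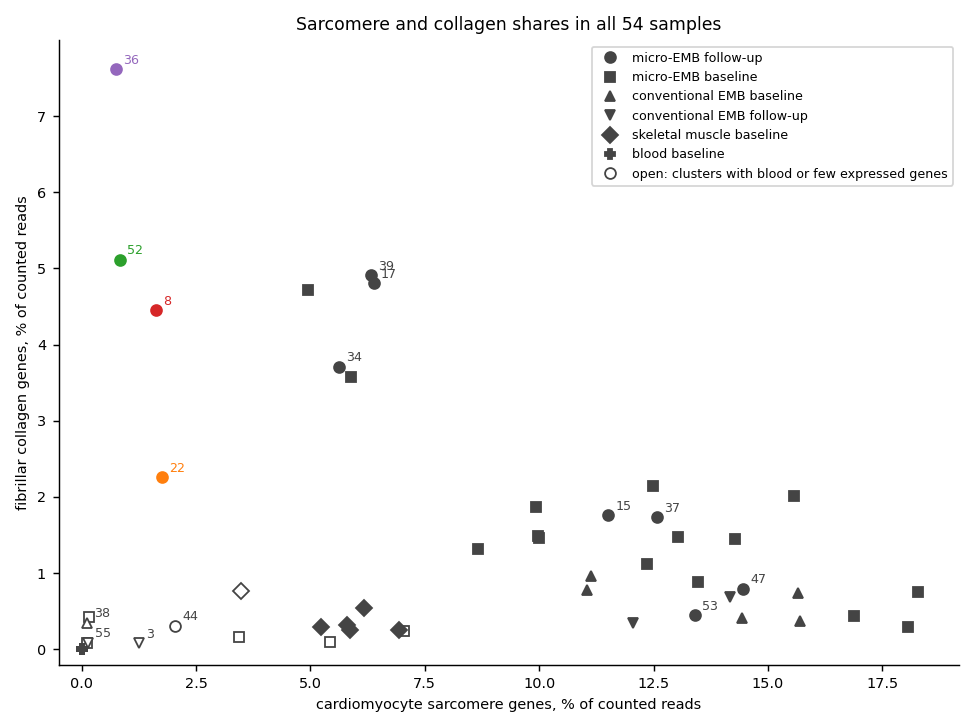
Share of counted reads in 18 sarcomere genes (horizontal, %) and in 9 fibrillar collagen genes (vertical, %) for each of the 54 samples, with marker shape for the group, colour for the 4 outlying samples and open markers for samples that clustered with blood or had few expressed genes. The 4 lie at the left, at 0.756 to 1.75% sarcomere, with collagen from 2.26% in sample 22 to 7.61% in sample 36, whereas sample 44 and conventional EMB samples 3, 38 and 55 lie at the left with collagen under 0.36%.

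Collagen and matrix genes were high in the 4 but overlapped with the other 8. Fibrillar collagen genes took 4.45, 2.26, 7.61 and 5.11% of reads in samples 8, 22, 36 and 52. In the 8 they took 0.310 to 4.91% (median 1.74%), with samples 39, 17 and 34 at 4.91, 4.81 and 3.71%. Samples 36 and 52 exceeded all 8, sample 8 exceeded 6 of them and sample 22 exceeded 5 of them. Conventional EMB held 0.346 to 0.958% and skeletal muscle 0.248 to 0.761%, so all 4 lay above both. Baseline micro-EMB samples that passed the same sample filters had a median of 1.46% and reached 4.72%. A share above conventional EMB was therefore not particular to the 4. All 7 fibrillar collagen genes tested had a fold change above 1 on the log2 scale (median 1.43). None of the 7 lay above all 8 in all 4, but only 0.448% of all genes did, so nothing is read from this. Within pigs the list median was 1.35, 0.66, 1.51 and 3.21 for samples 8, 22, 36 and 52, but sample 22 against sample 39 alone gave -1.21, the opposite direction. The same comparison gave -1.46 for the other collagens and -0.69 for collagen-modifying enzymes.

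COL3A1, a fibrillar collagen of young scar and vessel wall, stood at 17848, 10552, 64805 and 31170 CPM in samples 8, 22, 36 and 52. Its range in the 8 was 1211 to 36861 CPM with a median of 11857, and sample 22 lay below that median (log2 1.18, SE 0.96). POSTN, the periostin of activated fibroblasts, stood at 1957, 7099, 13677 and 9517 CPM. In the 8 it had a median of 648 CPM but reached 7701 CPM in sample 34 and 5760 CPM in sample 17, and in conventional EMB it lay between 125 and 560 CPM (log2 2.95, SE 0.97 for the 4 over the 8). FN1, fibronectin, was high in samples 8, 36 and 52 (27091, 17359 and 25197 CPM) and low in sample 22 (1606 CPM). Its highest value in all 12 was 34200 CPM, in sample 34 of the 8. FMOD, fibromodulin, which binds collagen fibrils, ran at 1149, 491, 1034 and 965 CPM against 28.7 to 733 CPM, and sample 22 alone kept the groups from separating. The 41 other matrix proteins had a median of 1.19 with 23 above 1 and 0 below -1. None lay beyond all 8 in all 4, where 0.448% of all genes lay above and 0.905% below. Within pigs their median was negative for sample 8 (-0.67), positive for samples 22, 36 and 52 (0.88, 1.40 and 2.10), and -0.30 for sample 22 against sample 39 alone.

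**Figure D3:**
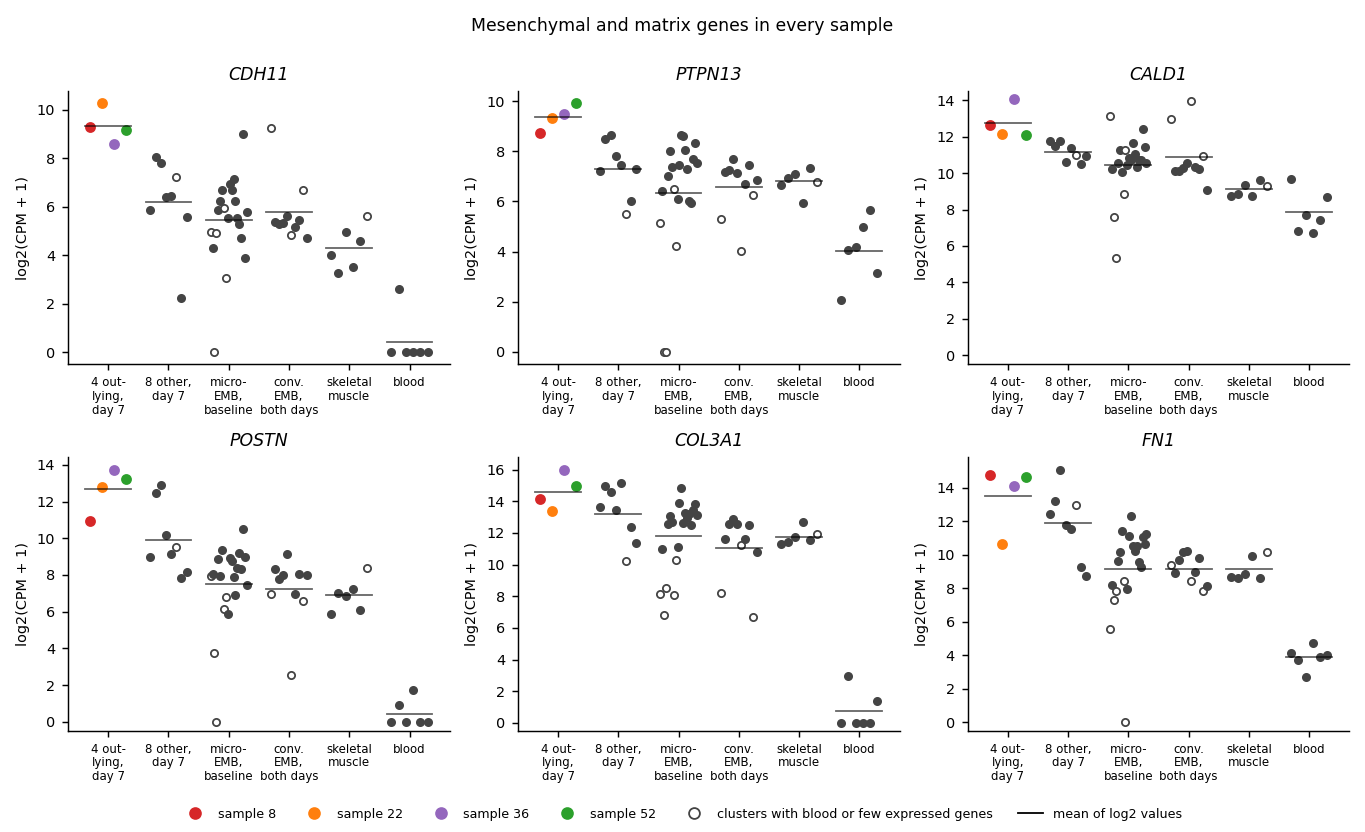
Levels of CDH11, PTPN13, CALD1, POSTN, COL3A1 and FN1, as log2(CPM + 1), in every sample of each group, drawn as in the plot of cardiomyocyte genes. CDH11, PTPN13 and CALD1 lie above all 8 other day 7 samples in all 4, whereas POSTN, COL3A1 and FN1 overlap.

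The named genes that did lie above all 8 in all 4 were led by CDH11, a cadherin of mesenchymal cells and activated fibroblasts. CDH11 stood at 615, 1233, 385 and 568 CPM in samples 8, 22, 36 and 52, and from 3.77 through a median of 84.5 to 264 CPM in the 8 (log2 2.96, SE 0.67). Conventional EMB held 24.9 to 47.6 CPM and skeletal muscle 8.62 to 47.9 CPM, and 1 baseline micro-EMB sample reached 515 CPM. CALD1, caldesmon, which regulates actin and myosin in smooth muscle and fibroblasts, stood at 6497, 4538, 17372 and 4335 CPM, against 1434 to 3478 CPM in the 8 and 535 to 1526 CPM in conventional EMB. CALD1 was also high in some samples that clustered with blood, at 16162 CPM in conventional EMB sample 38 and 8075 CPM in sample 3. Both values lay above samples 8, 22 and 52 and below sample 36. PTPN13, a tyrosine phosphatase, stood at 424, 639, 706 and 967 CPM against 44.4 to 401 CPM. MATN2, a filament-forming matrix protein, stood at 381, 1937, 221 and 172 CPM against 44.0 to 146 CPM, and IL1R1, the receptor for interleukin 1, at 110, 125, 334 and 124 CPM against 3.77 to 77.6 CPM.

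The rest of these 15 were TCF7, a Wnt pathway transcription factor, PARVA, an actin-binding protein of focal adhesions, PIK3R2, a regulatory subunit of phosphoinositide 3-kinase, and TCEAL9, SNX7, ZNRD2, MLLT1, LZTS3, TSPYL2 and TBL2. Their fold changes ran from 1.40 (PIK3R2) to 2.59 (TCF7) on the log2 scale. TCF7, which T cells also express, had 16.3 to 39.3 CPM in the 4, 0 to 8.42 in the 8 and 761 to 1066 CPM in blood. T and NK cell markers took 0.00512 to 0.0110% of reads in the 4, 0.00416 to 0.0201% in the 8 and 0.210 to 0.255% in blood, and their part in the TCF7 level was not tested. Of the 50 genes above all 8, 44 were measured well enough in the controls, with 17 lower in blood than in conventional EMB (24.2% of all genes) and 3 higher (8.51%). Without the control samples that clustered with blood these were 17 (27.4%) and 6 (17.5%). In muscle 3 of the 44 were lower (5.13% of all genes), MATN2 among these (log2 -1.85, SE 0.44, edgeR adjusted p = 0.0166).

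Against conventional EMB in level, the median of the 7 samples lay below the lowest of the 4 for 48 of the 50 genes (18.0% of all genes) and above the highest of the 4 for all 101 lower genes (20.2%). For skeletal muscle the numbers were 50 (24.3%) and 82 (20.2%), and for blood 40 (26.5%) and 21 (17.8%). Both sets had been chosen for their levels in the 4, so these counts are a description. For 28 of the 101 genes the blood median lay below the lowest of the 4.

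Pairs of the 4 were no more alike than pairs of the other 8. Over 11164 genes, the correlation of log2(CPM + 1) between pairs of the 4 ran from 0.612 to 0.733 (6 pairs, median 0.694). Pairs of the other 8 ran from 0.475 to 0.876 (28 pairs, median 0.727) and pairs across the groups from 0.524 to 0.843 (32 pairs, median 0.633). Sample 52 was more like samples 17 (0.843) and 34 (0.842) of the 8 than like any other of the 4 (0.733 at most). In the median, the 4 correlated less with conventional EMB (0.598 over 28 pairs) than the other 8 did (0.758 over 56 pairs). The ranges overlapped, at 0.462 to 0.703 for the 4 and 0.482 to 0.876 for the other 8. With skeletal muscle the medians were 0.549 and 0.679, and with blood 0.454 and 0.456. These correlations are across genes in libraries that share one protocol, and genes are not independent replicates. The differences from the same pig's other 2 samples correlated from -0.04 to 0.311 between pigs (6 pairs, median 0.085), highest for pigs 4491 and 4665 and for pigs 4664 and 4665 (0.307), and near 0 in each pair with pig 4494.

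**Figure D4:**
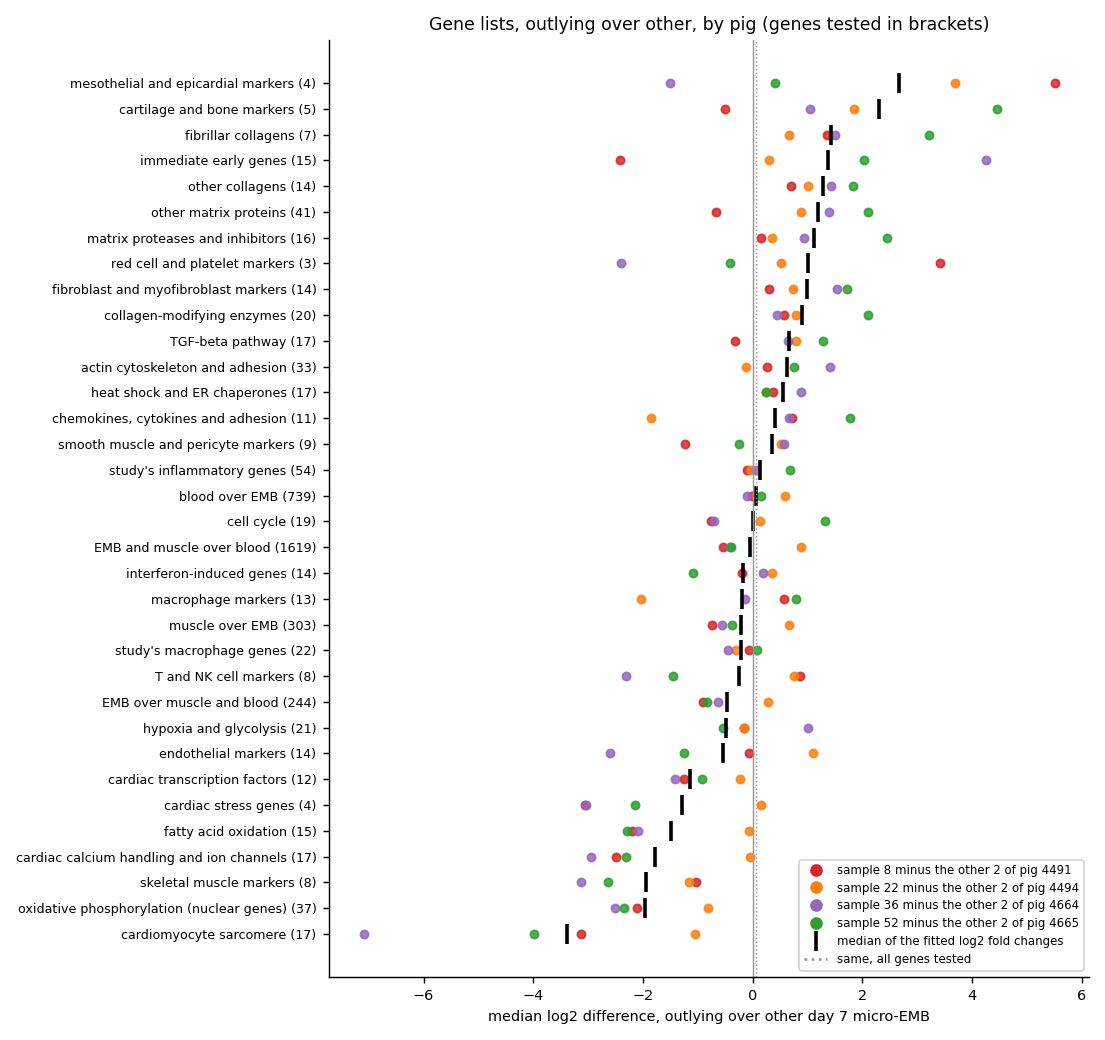
Median log2 difference, outlying over other day 7 micro-EMB, for each gene list with at least 3 genes tested, where points are the within-pig differences of samples 8, 22, 36 and 52 and black bars are medians of the fitted fold changes. The sarcomere points are all negative, from -7.09 to -1.04, while the mesothelial points run from -1.51 (sample 36) to 5.51 (sample 8) and the immediate early points from -2.43 (sample 8) to 4.26 (sample 36).

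Samples 8 and 22 shared a set of genes that the other 2 lacked. They came from pigs 4491 and 4494, the only pigs with sequenced conventional EMB, whereas samples 36 and 52 came from pigs 4664 and 4665. The split between the 2 pairs of samples therefore cannot be told apart from this difference between the pigs. KRT8, a keratin of epithelia and mesothelium, stood at 1555 CPM in sample 8 and 1034 in sample 22, at 0 in sample 36 and under 1 in sample 52, and at 144 CPM or less in the 8. WT1, a transcription factor of the epicardium, stood at 149, 284, 0.481 and 29.5 CPM against 0.602 to 79.5 CPM, and BNC1, basonuclin, another gene of mesothelium, at 146, 136, 15.4 and 0 CPM against 42.1 CPM or less. The 6 measured mesothelial and epicardial markers took 0.209% of reads in sample 8 and 0.157% in sample 22, and 0.00641% and 0.0104% in samples 36 and 52, against 0.00575 to 0.0188% in the 8 and 0.00179 to 0.0152% in conventional EMB. LGALS3, galectin 3, which macrophages and epithelia express, followed the same split at 420, 394, 0.961 and 10.0 CPM against 0 to 88.6 CPM.

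By a rule set after the values were seen, 19 genes were at least 4 times as high in both samples 8 and 22 as in any of the other 10 day 7 samples and at 50 CPM or more. No other pair of the 4 had more than 1 such gene, and no set of 3 had any. Among the 19 were 3 complement genes. C3, the central complement protein, stood at 3184 and 2759.6 CPM in samples 8 and 22 and at 490 CPM or less in the rest, CFB at 283 and 526 CPM (33.9 or less in the rest) and CFI at 854 and 1334 CPM (77.8 or less). Baseline micro-EMB reached 8229 CPM for C3 in 1 sample.

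**Figure D5:**
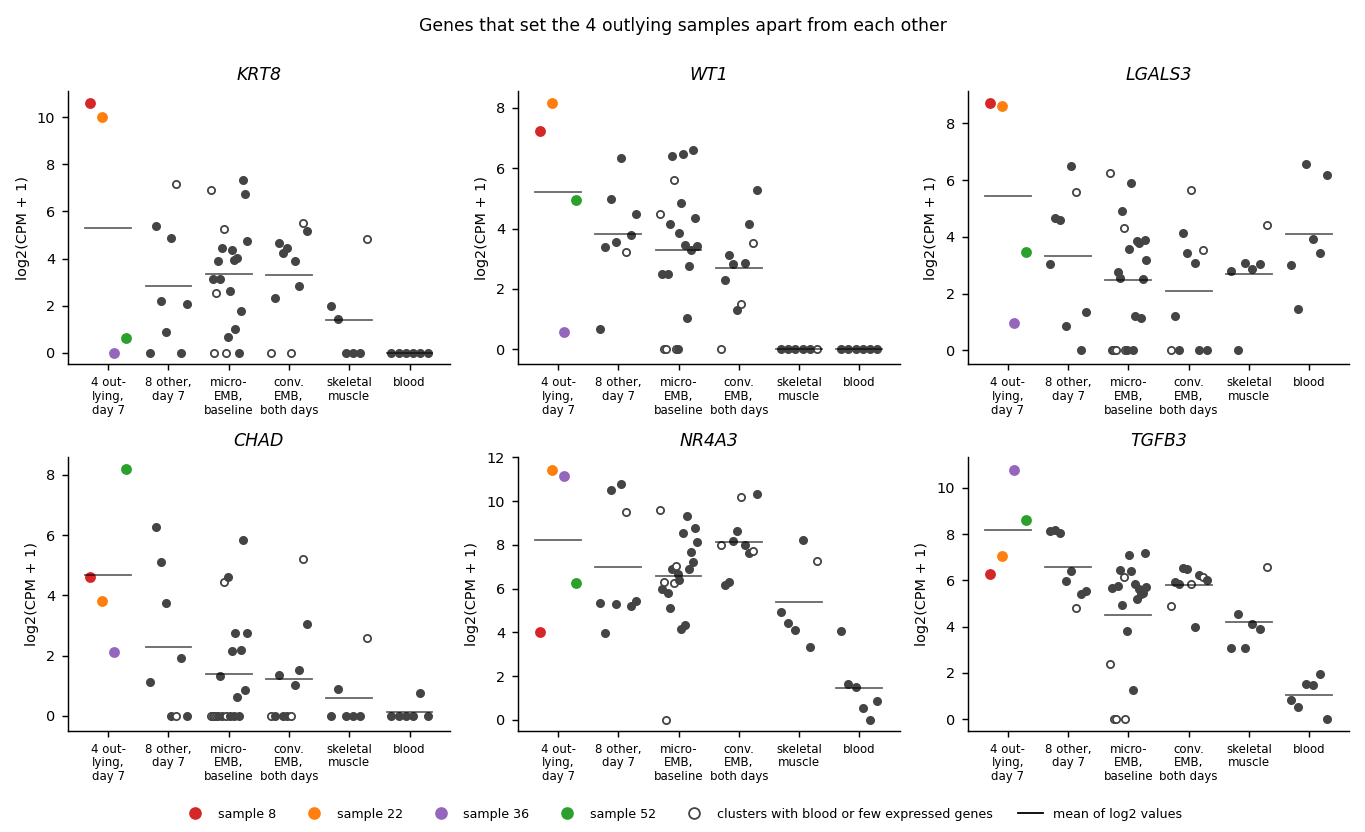
Levels of KRT8, WT1, LGALS3, CHAD, NR4A3 and TGFB3, as log2(CPM + 1), in every sample of each group, drawn as in the plot of cardiomyocyte genes. Samples 8 (red) and 22 (orange) are high for KRT8, WT1 and LGALS3, sample 52 (green) for CHAD, samples 22 and 36 for NR4A3 and sample 36 (purple) for TGFB3.

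Samples 36 and 52 differed from these in other gene groups. TGFB3, a transforming growth factor beta ligand, stood at 1760 CPM in sample 36 and 388 in sample 52, at 75.8 and 134 CPM in samples 8 and 22, and at 26.6 to 291 CPM in the 8. COL12A1, a collagen that decorates fibrils, stood at 7470 and 2368 CPM in samples 36 and 52, at 205 and 219 CPM in samples 8 and 22, and at up to 2334 CPM in the 8. CHAD, chondroadherin, a matrix protein of cartilage, was high in sample 52 alone (290 CPM, against 23.7, 13.1 and 3.36 CPM in samples 8, 22 and 36 and 76.7 CPM or less in the 8). CHI3L1, a chitinase-like protein of the study's inflammatory list, was also high in that sample alone (239 CPM, against 17.8 CPM or less in the other 3 and 20.6 CPM or less in the 8).

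By the same rule of 4 times and 50 CPM, sample 36 had 37 genes of its own, sample 22 had 28, sample 8 had 7 and sample 52 had 2. Of the other 8, sample 44 had 106, sample 39 had 50 and the rest 0 to 5, so genes of a single sample were not particular to the 4. MAP1B, a microtubule-binding protein of neurons and growing cells, was at 9662 CPM in sample 36 and 1514 CPM or less in the other 11. ALOX15, a lipoxygenase, was at 2943 CPM in sample 22 and 226 CPM or less in the other 11.

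Immediate early genes, which cells switch on within minutes of a stimulus, varied within both groups. NR4A3, an orphan nuclear receptor, stood at 2767 and 2230 CPM in samples 22 and 36, and at 15.4 and 76.3 CPM in samples 8 and 52. In the 8 it was at 1775, 1458 and 714 CPM in samples 39, 34 and 44 and at 42.4 CPM or less in the rest. The list median of 1.39 on the log2 scale thus joined samples on opposite sides, from -2.43 in sample 8 to 4.26 in sample 36 within pigs.

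Markers of endothelium, macrophages and red cells did not divide the groups. PECAM1, an adhesion molecule of endothelium, stood at 622, 534, 63.9 and 249.9 CPM against 126 to 1005 CPM. Of 14 endothelial genes, 12 had a negative fold change (median log2 -0.53), as had 5234 of all 11164 genes. CD68, a lysosomal protein of macrophages, stood at 33.2, 20.3, 72.6 and 41.0 CPM against 14.0 to 212 CPM, and the 13 macrophage markers had a median of -0.19. The macrophage marker with the largest fold change was SPP1, osteopontin, at 103, 67.4, 261 and 39.5 CPM against 0 to 130 CPM. HBB, beta globin, stood at 185 and 177 CPM in samples 8 and 22 and at 4.33 and 5.79 CPM in samples 36 and 52, against 9.42 to 85.4 CPM in the 8 and 18060 to 59656 CPM in blood. The red cell and platelet list took 0.00149 to 0.0313% of reads in the 4, 0.00119 to 0.0904% in the 8 and 2.96 to 6.62% in blood.

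Smooth muscle genes and genes of the actin cytoskeleton were read next. Of 9 smooth muscle and pericyte genes, 2 were higher and 2 lower by more than 1 on the log2 scale. In the list of the actin cytoskeleton, 28 of 33 genes had a positive fold change (median 0.63), as had 5930 of all 11164 genes. EZR, ezrin, which links actin to the membrane of epithelia, was high in samples 8 and 22 (2535 and 1772 CPM) and at 134 and 382 CPM in samples 36 and 52, against 137 to 753 CPM in the 8. ANXA2, a membrane-binding annexin, stood at 1639, 1905, 1236 and 544 CPM, and only sample 44 (1637 CPM) and sample 34 (586 CPM) of the 8 came above the lowest of the 4. In the TGF-beta list, 14 of 17 genes had a positive fold change (median 0.66).

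The study took its inflammatory and macrophage lists from the literature, and the members named here include those its own tables call in the 4, which are no independent evidence. Its calls set the 4 against micro-EMB samples that resembled conventional EMB, a different reference from the 8 used here. Of 54 inflammatory genes tested, 13 were higher and 8 lower by more than 1 on the log2 scale (median 0.14), and IL1R1 was the single gene above all 8 in all 4. TNFRSF1A, a receptor for tumour necrosis factor, stood at 328, 155, 166 and 223 CPM against 37.2 to 243 CPM. PDE4D, a cyclic AMP phosphodiesterase, stood at 77.0, 51.1, 75.9 and 67.3 CPM against 59.6 to 319 CPM. TGFB1, a transforming growth factor beta ligand, at 56.8, 29.5, 172 and 45.8 CPM, and REL, a subunit of NF-kappaB, at 37.9, 89.7, 297 and 44.7 CPM, lay within the range of the 8 apart from REL in sample 36. Of 22 macrophage genes, 0 were higher and 5 lower by that margin, and MR1, which presents vitamin metabolites to T cells, was below all 8 in all 4 (0, 2.62, 0 and 2.63 CPM against 12.9 to 30.6 CPM). PLOD1, a collagen lysyl hydroxylase, stood at 124, 93.6, 133 and 169 CPM against 29.5 to 132 CPM.

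Gene sets built from the controls were then read in the 4. The fits behind these sets kept conventional EMB sample 38 and skeletal muscle sample 57, which clustered with blood. Genes lower in muscle than in conventional EMB numbered 554 with these samples and 917 without them. Genes higher in blood than in conventional EMB numbered 919 and 1897 in that order. No values are given for sets built without these samples. The 244 tested genes higher in conventional EMB than in both muscle and blood had a median log2 fold change of -0.46, with 91 lower and 29 higher by more than 1. The whole set of 245 genes took 5.23, 5.07, 9.53 and 5.37% of reads in samples 8, 22, 36 and 52 and 5.28 to 9.74% in the 8. The 303 tested muscle genes had a median of -0.21. The whole set of 379 took 1.69 to 2.64% in the 4, 2.04 to 4.00% in the 8 and 23.3 to 46.7% in muscle. The 739 tested blood genes had a median of 0.07. The whole set of 868 took 5.13 to 7.45% in the 4, 2.89 to 11.3% in the 8 and 29.6 to 37.4% in blood.

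Conventional EMB was compared between baseline and follow-up. Of 9622 genes, 0 passed in edgeR (adjusted p under 0.05 and a log2 fold change beyond 1, 4 against 6 samples from 2 pigs), with 302 at an unadjusted p under 0.05, and 53 passed in DESeq2. For CDH11 the change was 2.14 on the log2 scale (SE 0.78, edgeR adjusted p = 0.973). It rested on samples 3 (599.6 CPM, 74767 reads) and 55 (102 CPM), which clustered with blood, while the other 2 follow-up samples held 42.7 and 24.9 CPM and the 6 baseline samples 27.8 to 47.6 CPM. The change for POSTN was -0.06 (SE 0.80, edgeR adjusted p = 0.999). Within pigs, the 4 were also set against baseline micro-EMB. The sarcomere share of sample 22 (1.75%) lay below the 3.44 to 14.3% of 4 baseline samples of pig 4494, the lowest of which, sample 19, clustered with blood. That of sample 36 (0.756%) was under the 12.4 to 13.5% of 3 baseline samples of pig 4664, and that of sample 52 (0.832%) under the 5.90 to 18.1% of 5 from pig 4665. Of the 4 baseline samples of pig 4491, samples 16 and 10 held 9.97 and 7.05%, above sample 8 (1.62%), and samples 4 and 21 held 0.124 and 0.153%, below it. Sample 4 clustered with blood, and samples 10 and 21 had few expressed genes. The fibrillar collagen share of samples 8, 36 and 52 lay above those of the same baseline samples, and that of sample 22 lay between the lowest and the highest of its pig.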

How the data were processed

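RNA was sequenced from 54 samples with a stranded total RNA kit. Per the labels and the study's methods, the authors trimmed reads with Trim Galore, mapped them to Sscrofa10.2 with STAR and assigned them to genes with featureCounts. The deposited values are whole-number counts for 25114 genes, with ribosomal and mitochondrial genes left out. The strand setting and annotation release are not given in the sources used here. Each sample had its own column.

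Gene names were matched for 11793 identifiers. Of 741 list symbols, 512 matched. Lists and members were chosen with earlier results of these data known. CPM used TMM over all 54 samples, except where genes at 1 CPM were counted per sample, which used library size alone. Fold changes came from edgeR 4.0.16 (filterByExpr, quasi-likelihood, pig as covariate, Benjamini-Hochberg adjustment) in R 4.3.3 over the 12 samples, with DESeq2 1.42.0 as an alternative. Pearson correlations and within-pig differences used log2(CPM + 1). The scripts were tested on simulated data. Plots came from Python 3.11.15.

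Genes named are the 15 highest and 15 lowest fold changes among genes beyond all 8 in all 4 (20 CPM or more in the higher group), up to 4 members per described list with the largest fold change (5 CPM or more), the study's called list members and defining markers. Samples under 5000 genes at 1 CPM (3) or clustering with blood on the study's blood genes (7) were left out of the plot's 44. Nothing shows that replicate biopsies of a pig were independent, so p-values measure the spread between these samples. 1 gene that the rule names is not reported here. Alternatives were other normalization, no filter, no pig, DESeq2 and leaving out samples or pigs.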

Additional observations from a re-analysis of the deposited data

Results flagged for a closer look

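A sample is listed here where its gap to the nearest of its group was large against the group's range. Of 264 groups of values, 45 (17.0%) were listed. A chance rate of about 1 in 20 would hold for independent values only. The groups here were selected genes in the same samples, so no excess over that rate is read from the number. Values are CPM.

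Sample 44 accounted for 21 of the 45. Among the other 8 it was the lowest for the muscle and energy genes ACTA1 (747), ACTC1 (118), ACTN2 (259), ANKRD1 (389), TNNC1 (323), FLNC (240), KLHL31 (28.7), PGAM2 (11.0), PYGM (15.7), CKMT2 (26.1) and ACADL (20.9). It was also the lowest for PFN1 (8.35), PARVA (3.13) and SLCO5A1 (3.13), and was at 0 for CASQ1, EGLN3, LZTS3, PPARA and TBX5. It was the highest for REEP1 (221) and FCGR1A (163).

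Sample 36 was the lowest of the 4 for ACTA1 (22.6), ACTN2 (19.2), ANKRD1 (6.73), MYBPC3 (60.1), XIRP2 (0.481) and FLT4 (0), and the highest for IL1R1 (334). Sample 22 was the lowest of the 4 for FN1 (1606), COL8A1 (58.3) and ADAM12 (9.17). Sample 8 was the highest for MLLT1 (109) and was at 0 for FGD4.

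Sample 52 had the only reads of the 4 for LRRC39 (1.58), SLCO5A1 (1.58), ZWILCH (1.58), REEP1 (5.79), CAMK2A (1.05) and ALOX5 (7.89). In the 8, sample 47 was the lowest for CDH11 (3.77) and IL1R1 (3.77), sample 39 was the highest for MATN4 (622) and at 0 for TBL2, sample 15 was the highest for ACTG2 (665) and sample 37 the highest for BNC1 (42.1).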

How the results depend on the processing

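Among 2767 alternative values of single genes, 2747 moved by less than the spread over the replicates or pigs, 13 moved further and 7 turned sign, and among 714 list medians the numbers were 709, 3 and 2. The cause of each change was not tested unless stated. The turned values were MATN4 without the pig in the fit (log2 -0.90), ACTG2 without sample 36 (-2.01) or sample 17 (-0.00781), PDPN without sample 8 (-0.35) or pig 4491 (-0.37), and HBB and the red cell list, of which it is the median, without sample 8 (-0.34) or pig 4491 (-0.36). Leaving out 1 sample at a time, the log2 fold change of ACTG2 ran from -2.01 to 3.79, the log2 fold change of PDPN from -0.35 to 2.18, the log2 fold change of HBB from -0.34 to 1.82 and the median log2 fold change of red cell and platelet markers from -0.34 to 1.56. Genes above all 8 in all 4 numbered 50 and genes below 101, and leaving out 1 sample at a time gave 55 to 152 above and 102 to 333 below, with fewer samples to exceed in each case. The highest numbers came without samples 52 and 44, and without sample 44 the number below was 333. DESeq2 size factors gave 45 and 134, TMM over the 12 samples alone, chosen after seeing the data, 41 and 125, and no filter on low counts 52 and 105. The median correlation among the 4 was 0.753 on variance-stabilized counts, against 0.694. The lowest of the 4 lay 14.2 above the nearest other day 7 sample on the first principal component, but the same difference was -20.3 when all 54 samples entered, which puts sample 44 on the axis. With log2 CPM in the 44 samples, baseline micro-EMB sample 45 scored -0.62, above samples 22 (-3.46) and 52 (-1.75), so the 4 did not separate from baseline there. For the counted reads, outlying against other, the difference in log10 without sample 8 was 0.015 (exact permutation test, p = 0.945), and over the leave-outs it ran from -0.16 to 0.015. The test of skeletal muscle against conventional EMB at baseline gave 984 genes, and 1571 without the samples that clustered with blood. Conventional EMB over time gave 0 genes, 53 in DESeq2 and 106 with no filter on low counts. Leaving out 1 follow-up sample gave 0 in edgeR. The replicate numbers in the labels are unique to each sample and pair nothing, so pairing enters only through the pig, which is a covariate in each fit. Depth, at 801208 reads in sample 8, limits what can be said of genes under about 5 CPM, where values rest on single reads.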

Other observations

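Markers of cartilage and bone and of Schwann cells were scattered over the 4 samples. RUNX2, a transcription factor of bone formation, stood at 55.2 CPM in sample 52 and at 1.18, 2.62 and 9.61 CPM in samples 8, 22 and 36, against 17.5 CPM or less in the other 8. CDH19, a cadherin of Schwann cells, stood at 42.6, 133 and 102 CPM in samples 8, 22 and 36, at 4.74 CPM in sample 52 and at 24.8 CPM or less in the other 8. BAMBI, a decoy receptor of the TGF-beta family, stood at 94.7, 181 and 37.9 CPM in samples 8, 22 and 52, at 3.36 CPM in sample 36 and at 19.1 CPM or less in the other 8. Cell cycle genes had a median log2 fold change of 0 over 19 genes, and the 17 heat shock and chaperone genes one of 0.55, with none beyond 1 in either direction. Interferon-induced genes had a median of -0.18 over 14 genes, chemokines and adhesion molecules 0.41 over 11 and collagen-modifying enzymes 0.91 over 20. T and NK cell markers had a median of -0.24 over 8 genes.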
